A study of Mus musculus with 4 samples.

Results

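Deaf1 occupancy was examined at 10 genes that encode ATG8 family proteins or selective autophagy receptors, of 21887 protein-coding genes on chromosomes 1 to 19, X and Y. The genes were a fixed list, chosen with earlier results of these data known. They were Map1lc3a, Map1lc3b, Gabarap, Gabarapl1, Gabarapl2, Sqstm1, Nbr1, Optn, Tax1bp1 and Calcoco1. For each gene, every peak overlapping its annotated span plus 5 kb on each side was taken. This window held 3 of 1860 peaks of replicate 1, 3 of 3126 peaks of replicate 2 and 3 of 1550 regions of the combined list. All lay entirely inside their windows, at Nbr1, Gabarap and Map1lc3b.

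The chromatin came from the C2C12 line, which consists of mouse myoblasts (muscle precursor cells). All 4 libraries shared this line and the same culture medium, and no genotype or treatment is named: 2 were immunoprecipitated with an antibody against Deaf1 and 2 were inputs without antibody. Chromatin immunoprecipitation followed by sequencing (ChIP-seq) counts the DNA fragments that an antibody pulls down along the genome. Nothing in the labels places the libraries in separate cultures, so an SD over them measures the spread between these libraries, which may be technical. The myoblast identity was not checked here, because peak lists hold no expression values.

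ATG8 proteins, which comprise the LC3 and GABARAP subfamilies in mammals, are small ubiquitin-like proteins that are coupled to phosphatidylethanolamine on the growing autophagosome membrane. Selective autophagy receptors bind cargo with one part of the protein and lipid-bound ATG8 with a short LC3-interacting region, and so bring the cargo into the autophagosome. In skeletal muscle this pathway clears damaged mitochondria and protein aggregates. Deaf1 is a transcription factor with a SAND domain that is known to bind CpG-containing DNA with the core letters TTCG. The series title places it under FOXO factors, in muscle regeneration and autophagy. The comparison made here is which of these genes carried Deaf1 peaks, where, and how strong the peaks were among all peaks.

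Promoter sequences are shown for 5 genes on which the positions turn: 2 promoters that a region of the combined list overlapped (Nbr1 and Phf23, the neighbour of Gabarap), and those of Gabarap, Map1lc3b and Sqstm1, which no peak overlapped. They are RefSeq windows on GRCm38.p6, from 250 bases before to 50 bases after an annotated start, 5′ to 3′ along the gene. Capitals mark TTCG on either strand, written TTCG or CGAA; overlapping matches were counted separately.
Nbr1, chr11:101551857-101552156, plus strand: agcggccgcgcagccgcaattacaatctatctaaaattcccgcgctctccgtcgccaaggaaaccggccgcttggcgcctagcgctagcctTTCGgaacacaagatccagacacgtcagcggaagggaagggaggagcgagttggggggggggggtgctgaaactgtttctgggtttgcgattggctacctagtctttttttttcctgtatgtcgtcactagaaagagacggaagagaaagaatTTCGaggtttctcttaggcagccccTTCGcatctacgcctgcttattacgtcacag
Phf23, chr11:69995516-69995815, plus strand: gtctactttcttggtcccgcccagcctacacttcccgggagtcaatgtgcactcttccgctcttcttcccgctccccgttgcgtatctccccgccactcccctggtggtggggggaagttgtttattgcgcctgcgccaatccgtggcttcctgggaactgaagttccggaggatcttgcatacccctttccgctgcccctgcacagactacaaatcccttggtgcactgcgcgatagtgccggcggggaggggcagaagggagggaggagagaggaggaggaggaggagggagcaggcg
Gabarap, chr11:69991120-69991419, plus strand: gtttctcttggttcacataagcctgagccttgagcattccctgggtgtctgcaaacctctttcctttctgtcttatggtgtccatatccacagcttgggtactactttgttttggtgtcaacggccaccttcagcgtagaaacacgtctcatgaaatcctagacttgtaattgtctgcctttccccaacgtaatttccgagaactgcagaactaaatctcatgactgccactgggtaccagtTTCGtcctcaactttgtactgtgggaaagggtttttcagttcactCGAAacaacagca
Map1lc3b, chr8:121590188-121590487, plus strand: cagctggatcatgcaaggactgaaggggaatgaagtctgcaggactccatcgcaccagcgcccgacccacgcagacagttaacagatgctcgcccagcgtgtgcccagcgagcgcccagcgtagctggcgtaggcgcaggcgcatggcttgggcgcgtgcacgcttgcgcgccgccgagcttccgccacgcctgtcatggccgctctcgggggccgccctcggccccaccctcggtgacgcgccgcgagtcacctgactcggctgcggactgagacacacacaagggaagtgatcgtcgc
Sqstm1, chr11:50210771-50211070, minus strand: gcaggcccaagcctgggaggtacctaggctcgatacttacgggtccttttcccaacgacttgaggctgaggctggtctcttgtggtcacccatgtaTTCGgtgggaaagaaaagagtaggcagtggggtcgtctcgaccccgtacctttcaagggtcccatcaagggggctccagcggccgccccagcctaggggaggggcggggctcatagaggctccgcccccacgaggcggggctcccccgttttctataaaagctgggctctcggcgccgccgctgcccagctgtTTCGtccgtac

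Among the genes, 3 of 10 had a region of the combined list in the window, where 9.03% of all protein-coding genes had one. In replicate 1 the count was 3 of 10 beside 9.71% of all genes, and in replicate 2 it was 3 of 10 beside 14.6%. The same 3 genes made up each count. These shares are descriptions, since the genes were chosen with earlier results of these data known. The windows also reach into neighbouring genes: other protein-coding genes overlapped the windows of 6 genes, with up to 2 in one window. When a region was counted for a gene only if no other protein-coding gene had an end closer to the summit, 2 of 10 remained (Nbr1 and Map1lc3b), beside 6.12% of all genes. With 1 kb flanks, or within 1 kb of a gene end, the count was 2 of 10 (Nbr1 and Gabarap), beside 7.68% and 6.99% of all genes. With 10 kb flanks it stayed at 3, beside 10.7%. With peaks limited to a −log10 q of at least 5, 2 of 10 genes (Nbr1 and Map1lc3b) had a peak in each library, beside 8.8% of all genes in replicate 1 and 13.1% in replicate 2. Of the 9 genes with a RefSeq promoter window, 1 (Nbr1) had a region of the combined list overlapping it, beside 6.69% of 17492 genes with such windows. For peaks of single libraries this count was also 1 of 9, beside 7.03% in replicate 1 and 10.7% in replicate 2.

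At the receptors, Nbr1 was the only gene of 5 with a peak. Of all protein-coding genes, 9.71% had a peak in the window in replicate 1 and 14.6% in replicate 2. Nbr1 encodes a receptor for ubiquitinated cargo and peroxisomes that resembles p62, and its span is chr11:101552107-101581951. Its region spanned chromosome 11 from 101551885 to 101552134 and lay across the annotated start at 101552107. The summit was 60 bp before that start in replicate 1 and 35 bp before it in replicate 2. The peaks covered 149 bases of the promoter window in replicate 1 and 250 bases in replicate 2, and the summits lay 25 bp apart. The start of Brca1, a DNA repair gene on the opposite strand, lies at 101551955, 92 bp from the replicate 1 summit and 117 bp from the replicate 2 summit. The summits therefore sit between a head-to-head pair of starts, with the start of Nbr1 the nearer in both libraries. The combined region, which has the bounds of the replicate 2 peak, reaches past both starts. The narrower replicate 1 peak, from 101551964 to 101552112, reaches past the start of Nbr1 but not that of Brca1. The peaks covered 149 and 229 bases of the Brca1 promoter window, nearly as many as of the Nbr1 window, so the region cannot be given to 1 of these genes. Nbr1 has a second annotated start at 101552654, and no peak overlapped its promoter window.

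The Nbr1 summit of replicate 1 lay under 27 ChIP fragments (exact Poisson interval at the 95% level, 17.8 to 39.3), and that of replicate 2 under 30 (20.2 to 42.8). These pileups were above the medians of the lists, 22 and 23 fragments, with 30.4% and 28.8% of peaks higher. The deposited fold enrichment, which divides ChIP fragments by local background after adding 1 to each, was low among peaks. It was 3.92 in replicate 1, where 95.4% of peaks had a higher fold, and 4.56 in replicate 2, where 81.1% did, a mean of 4.24 ± 0.45 (SD, n = 2). The local background was high: 6.15 fragments in replicate 1 and 5.80 in replicate 2, against genome-wide values of 1.80 and 2.09. A higher background was found at 1.72% and 3.42% of peaks. These backgrounds were whole multiples of the ratio of ChIP to input depth and correspond to 7 input fragments (exact Poisson interval 2.81 to 14.4) for replicate 1 and 6 (2.20 to 13.1) for replicate 2. Set against the genome-wide background instead, the mean fold at Nbr1 would be 10.0, a value computed after seeing the data. The input counts behind the local value are small, as their intervals show.

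The Nbr1 promoter window held 3 TTCG matches, and 2.16% of 21238 protein-coding promoter windows held more. The match at 101552101 to 101552104, 6 bp before the start, lay inside both peaks, 54 bp from the replicate 1 summit and 29 bp from the replicate 2 summit. The matches at 101551948 and 101552126 lay inside the replicate 2 peak and outside the narrower replicate 1 peak. The Brca1 window, which overlaps that of Nbr1, holds the same 3 matches. A match is a description of the letters and not a binding site.

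**Figure D1:**
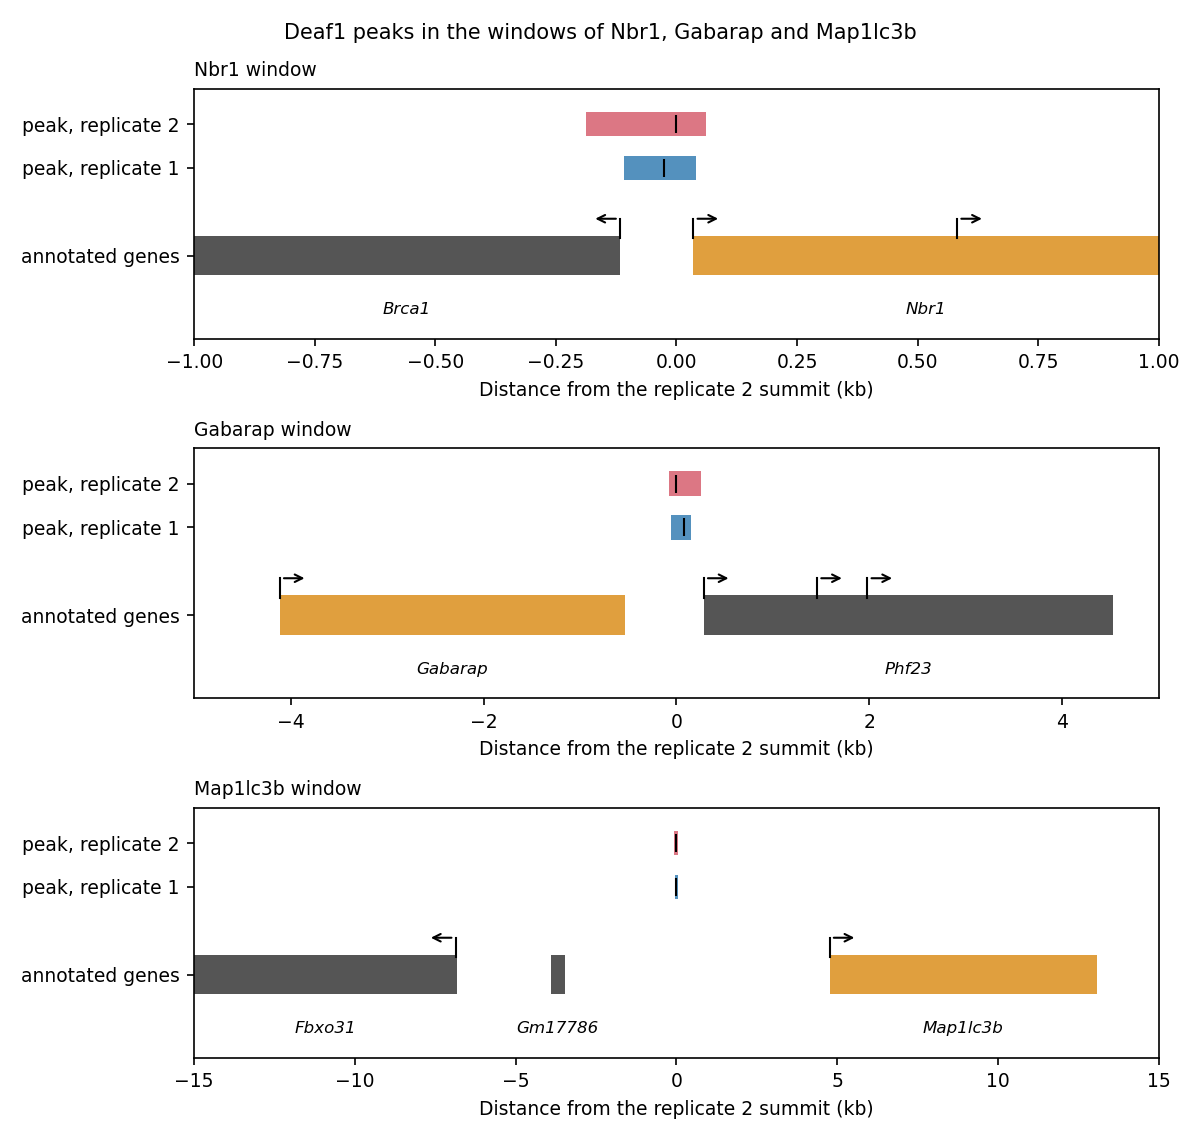
Positions of the peaks of both libraries (blue, replicate 1; red, replicate 2; black ticks, summits) and of annotated genes (orange, the listed gene; grey, neighbours; arrows, annotated starts and their direction), against distance from the replicate 2 summit in kb, with a different range in each panel. The Nbr1 peaks lie across a start, the Gabarap peaks lie before the start of Phf23, and the Map1lc3b peaks lie between genes.

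The other 4 receptors had no peak in either library within 5 kb. Sqstm1, at chr11:50200152-50210820, encodes p62, the receptor for ubiquitinated aggregates. Optn, at chr2:5020521-5064399, and Tax1bp1, at chr6:52713692-52766780, encode receptors with roles in the removal of damaged mitochondria and of bacteria. Calcoco1, at chr15:102706777-102722178, encodes a receptor of endoplasmic reticulum and Golgi turnover. The nearest summit to Sqstm1 was 68.8 kb away in replicate 1 and 25.3 kb away in replicate 2. The replicate 1 summit lay 268 bp from an end of Tbc1d9b, with 78 fragments and a fold of 25.7, and its peak was part of the combined list. The replicate 2 summit lay 36 bp from an end of Mrnip, the next gene on that side, with 14 fragments and a fold of 3.08, and its peak was not part of that list. The distances for Calcoco1 were 236 kb in replicate 1 and 301 kb in replicate 2. For Optn they were 368 kb in both libraries, at a region near an end of Prpf18. For Tax1bp1 they were 3640 kb in replicate 1 and 856 kb in replicate 2. Over all protein-coding genes the median distance from the gene span to the nearest summit was 305 kb in replicate 1 and 168 kb in replicate 2. Sqstm1 was thus nearer to a summit than the median gene in both libraries, Calcoco1 in replicate 1, and Optn and Tax1bp1 in neither.

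Of the ATG8 genes, Gabarap and Map1lc3b had a region in the window, and in neither case at the gene's own start. Gabarap encodes a founding member of the subfamily that acts late in autophagosome formation, and its span is chr11:69991370-69994949. Its region spanned chromosome 11 from 69995405 to 69995740, beyond the far end of the gene. The summit was 614 bp from that end in replicate 1 and 534 bp in replicate 2, and 4193 bp and 4113 bp downstream of the annotated start. It was nearer to Phf23, a PHD finger gene whose first annotated start at 69995766 lay 203 bp after the replicate 1 summit and 283 bp after the replicate 2 summit. The peaks covered 114 and 225 bases of the Phf23 promoter window shown above. That window had 0 TTCG matches, as did 50.9% of all windows, while the Gabarap window had 2 matches and no peak.

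By fold, the region near Gabarap was among the weakest of both lists. A higher pileup was found at 94.0% of peaks in replicate 1 and 55.8% in replicate 2. The summit pileup in replicate 1 was 13 fragments (interval 6.92 to 22.2), and replicate 2 had 21 (13.0 to 32.1). Its background was 2.64 and 5.80 fragments, which correspond to 3 and 6 input fragments. The fold enrichment was 3.85 in replicate 1 and 3.23 in replicate 2, a mean of 3.54 ± 0.44 (SD, n = 2). A higher fold was found at 95.9% and 97.8% of peaks. The deposited −log10 q was 2.26 in replicate 1 and 2.95 in replicate 2, the lowest of the 3 genes in each library. The higher pileup of replicate 2 came with a higher background, so the order of the libraries by pileup was the reverse of that by fold, and the pileup intervals overlap.

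Map1lc3b encodes LC3B, the ATG8 protein most often used to mark autophagosomes, and its span is chr8:121590438-121598760. Its region was narrow, on chromosome 8 from 121585585 to 121585726, 142 bp wide in the combined list. The summit lay 4775 bp before the annotated start of Map1lc3b in replicate 1 and 4763 bp before it in replicate 2, just inside the 5 kb limit of the window. The next gene outside that limit was Sqstm1 in replicate 2 and Gabarapl2 in replicate 1, at 25.3 kb and 39.4 kb. The gene end closest to the Map1lc3b summit belonged to Gm17786, a pseudogene, at 3470 bp and 3482 bp. Among protein-coding genes Map1lc3b was the nearest, and Fbxo31, which encodes an F-box protein, followed at 6799 bp and 6811 bp. The Map1lc3b promoter window had no peak, 0 TTCG matches and 34 CG dinucleotides, and 9.13% of windows had more CG.

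This intergenic region had the highest deposited fold of the 3. Replicate 1 had 22 fragments at the summit (exact Poisson interval 13.8 to 33.3) and replicate 2 had 32 (21.9 to 45.2), over backgrounds of 2.64 and 2.90 fragments. Both backgrounds correspond to 3 input fragments (95% exact Poisson interval 0.619 to 8.77). The fold was 6.33 and 8.46, a mean of 7.39 ± 1.51 (SD, n = 2), with 59.9% of peaks higher in replicate 1 and 25.9% in replicate 2. The summits lay 12 bp apart. The fold thus stood near the middle of the replicate 1 list and in the upper part of the replicate 2 list, and the pileup intervals of the libraries overlap.

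**Figure D2:**
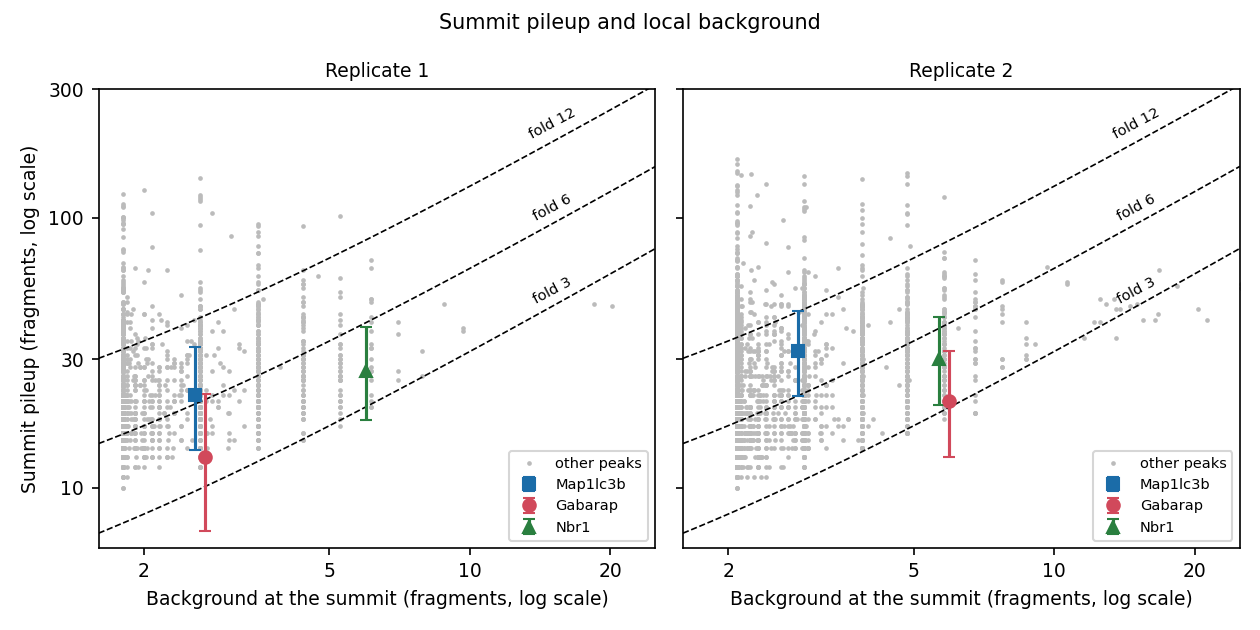
Summit pileup against local background, both in fragments on log scales, for other peaks (grey) and for the peaks at Map1lc3b, Gabarap and Nbr1, with 95% exact Poisson intervals on the pileup. The 3 symbols are moved slightly sideways so that they do not overlap. Peaks with the highest backgrounds lie beyond the right edge and are not drawn. Dashed lines join equal fold enrichment, and Nbr1, at 27 and 30 fragments, lies far to the right of most peaks, at backgrounds of 6.15 and 5.80.

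By deposited fold, the order was Map1lc3b, Nbr1, Gabarap in both libraries. Against the genome-wide background the mean folds were 10.0 at Nbr1, 9.45 at Map1lc3b and 6.06 at Gabarap. Nbr1 then came first in replicate 1 (9.99 against 8.21), while Map1lc3b stayed first in replicate 2 (10.7 against 10.0). The means of Nbr1 and Gabarap, 4.24 ± 0.45 and 3.54 ± 0.44, differ by more than either SD, but the replicate 1 values, 3.92 and 3.85, were nearly equal. By pileup the order in replicate 1 was Nbr1, Map1lc3b, Gabarap, and in replicate 2 it was Map1lc3b, Nbr1, Gabarap. The intervals of Nbr1 and Map1lc3b overlap in both libraries. The combined list gives each region a score from the irreproducible discovery rate (IDR). This rate is the estimated share of irreproducible regions among those ranked at least as high, and not the chance for a single region. The score was 491 for Map1lc3b (IDR 0.0657) and 121 for both Nbr1 and Gabarap (IDR 0.511). The value 121 is the lowest in the list and is shared by 377 of its 1550 regions (24.3%). None of the 3 regions reached a score of 540, an IDR of 0.05, where 4.09% of all genes had a region in the window.

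The other ATG8 genes had no peak within 5 kb in either library. Gabarapl2, at chr8:111940703-111952915, was 39.4 kb from a summit in replicate 1 and 58.4 kb from one in replicate 2. The first of these summits lay 9 bp from an end of Adat1 and the second 13 bp from an end of Kars, and neither was in the combined list. Map1lc3a, which encodes LC3A and spans chr2:155276364-155278073, was 652 kb and 549 kb from the nearest summits. Gabarapl1, which is known as a FOXO target in muscle and spans chr6:129533192-129542331, was 4493 kb and 1751 kb away, farther than 93.4% and 89.5% of all genes. For the 7 genes without a peak, 13 of the 14 nearest summits were at most 1 kb from another protein-coding gene's end, beside 74.1% of all summits in replicate 1 and 68.5% in replicate 2. The lowest summit in either list had 10 fragments, over the genome-wide background of 1.80 or 2.09. Occupancy below that height was not detectable at this depth. Where the local background was higher, the lowest summit was higher too: in replicate 1 it had 17 fragments over 5.27 and 20 over 6.15.

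**Figure D3:**
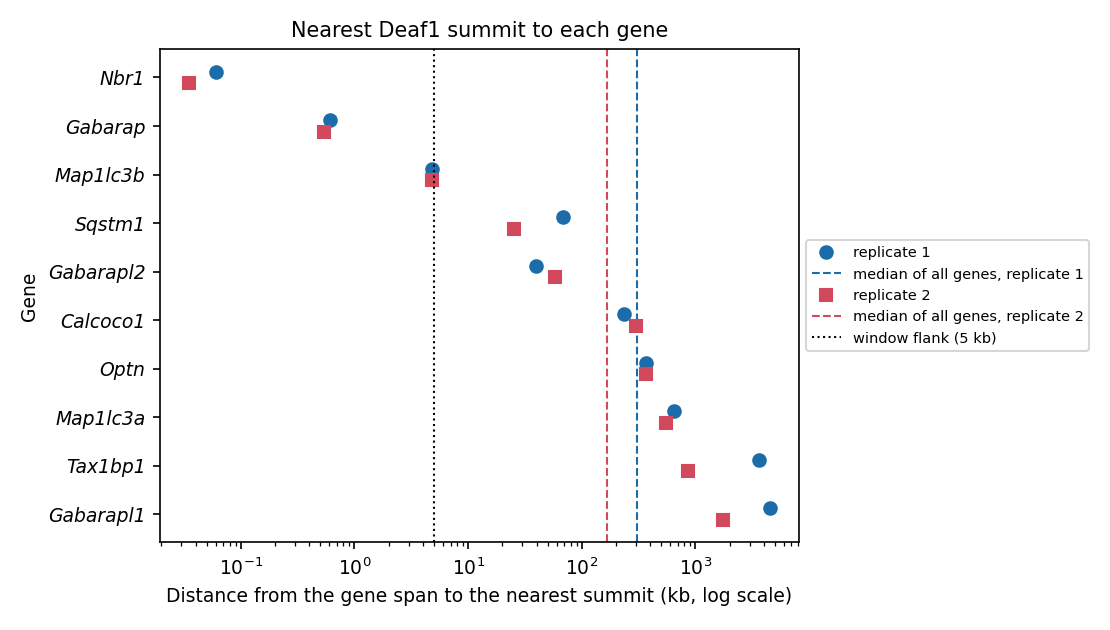
Distance in kb, on a log scale, from each gene's annotated span to the nearest summit of replicate 1 (blue circles) and replicate 2 (red squares), with the median over 21887 genes dashed and the 5 kb flank dotted. Nbr1, Gabarap and Map1lc3b lie inside 5 kb in both libraries, and the other 7 genes lie at 25.3 kb or more.

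The promoter windows of the list had no common level of TTCG or CG. Over the 11 windows of 9 genes, 9 held at least 1 TTCG match, beside 49.1% of all 21238 windows, and the median was 1 match (range 0 to 3). Sqstm1, Gabarap and Optn each had 2 matches. Gabarapl1, Calcoco1 and both windows of Tax1bp1 had 1, and Gabarapl2 and Map1lc3b had 0. In Sqstm1 the matches lay 154 bp before and 39 bp after the start. CG dinucleotides ranged from 7 at Gabarap to 34 at Map1lc3b, with a median of 19 beside 13 over all windows. GC content ran from 45.7% to 68.7%, with a median of 55.7% beside 56.3%. Over all windows, the share overlapping a region of the combined list was 3.38% with 0 matches, 6.19% with 1, 10.7% with 2 and 17.6% with 3 or more. The median number of CG dinucleotides moved with the number of matches, at 6, 16, 21 and 23, and its part in these shares was not tested. At 3 or more matches, as in the Nbr1 window, most windows thus had no region.

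**Figure D4:**
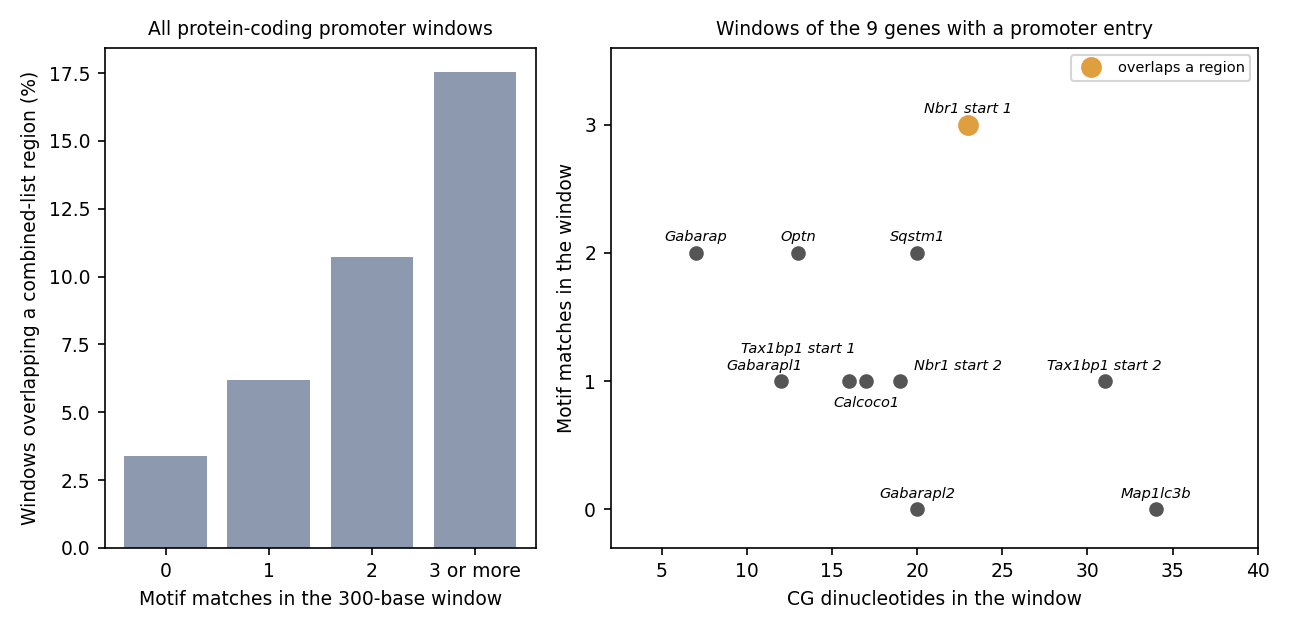
Left, share in percent of all protein-coding promoter windows that overlap a region of the combined list, by number of TTCG matches on both strands: 3.38%, 6.19%, 10.7% and 17.6%. Right, matches against CG dinucleotides for the 11 windows of the 9 genes with a promoter entry, where start 1 and start 2 are the annotated starts of a gene in order along the chromosome; the window with a region (orange, Nbr1) has the most matches, 3.

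Other genes of the pathway were taken from 2 lists. Of 11 genes for the coupling of ATG8 to lipid and its removal, 3 had a region in the window, beside 9.03% of all genes: Atg5, Atg12 and Atg16l1. Their proteins form the complex that passes ATG8 to its lipid. At Atg5 the summit lay 28 bp from the gene's own end, with a fold of 6.69 in replicate 1 and 7.70 in replicate 2, a mean of 7.20 ± 0.71 (SD, n = 2), close to that at Map1lc3b. The score at Atg5 was 403 (IDR 0.107). At Atg12 the fold was 4.40 and 4.31, with the lowest score of 121 (IDR 0.511), and an end of Ap3s1 was closer (79 bp) than that of Atg12 (109 bp). At Atg16l1 the fold was 10.8 and 6.47, with a score of 576 (IDR 0.041), which no region of the 10 genes reached. By single library, 3 of the 11 genes had a peak in replicate 1, beside 9.71% of all genes. In replicate 2 there were 4, with Atg7 added, beside 14.6%.

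Of 24 genes listed as other receptors and adaptors, 3 (12.5%) had a region, beside 9.03% of all genes, a share near that background: Phb2, Rtn3 and Nufip1. Phb2 encodes an inner mitochondrial membrane protein that acts as a mitophagy receptor. Its fold of 12.9 in replicate 1 and 17.8 in replicate 2, over 46 and 54 fragments, was above that of every region of the 10 genes, and its score was 851. The closest end there belonged to Emg1, at 37 bp, against 66 bp for Phb2. Nufip1, a ribosome turnover receptor, had 11.0 and 13.3, with an end of Gpalpp1 at 28 bp and its own at 48 bp. Rtn3, a receptor for endoplasmic reticulum tubules, had 5.35 and 6.48 at 109 bp from its own end, with the lowest score of 121. In replicate 2 alone, 8 of these 24 genes had a peak (beside 14.6% of all genes) against 3 in replicate 1 (beside 9.71%), whereas the 10 listed genes had 3 in each library. No test of a difference between these lists was made.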

How the data were processed

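Peak lists of the 2 Deaf1 ChIP libraries and their combined list were analysed; no file of the 2 inputs was analysed here. Reads were handled with FastQC 0.11.8, BWA 0.7.17-r1198 and MACS2 2.1.2 on mm10, per the submitters' processing notes, which give no roles; mm10 is GRCm38. Duplicate removal is not given in the sources used here. The labels' protocols describe fixation with 1% formaldehyde for 10 min and also use the term native; this conflict was not settled. Each deposited peak has a fold enrichment (ratio to local background) and −log10 p and q. The deposited score of the combined list is −125 times log2 of the IDR. Its 6 columns holding each sample's values carry no names and were left aside.

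Pileup and background at each summit were recovered from the deposited fold, (pileup + 1)/(background + 1), and Poisson −log10 p: exactly 1 whole-number pileup fitted for 100% of peaks. On simulated summits 100% of 1951 pileups were recovered. The ratio of ChIP to input depth was taken as the step of which most raised backgrounds are whole multiples within 0.01 (0.878 explaining 63.2% of them in replicate 1, 0.967 explaining 66.3% in replicate 2). Intervals cover counting error only. Overlap was at least 1 bp. Genes and promoters are RefSeq GRCm38.p6; promoter windows matched 9 of 10 genes, without Map1lc3a. Ranks are by fold within a list. No test was made, with a single ChIP group. Genes, lists and rules were chosen with earlier results of these data known. Named were all 10 genes, nearer neighbours, and genes of 2 autophagy lists with a combined-list region; Brca1, Fbxo31 and the genes at summits outside the windows were named after their values were seen. Python 3.11.15, numpy 2.4.6, pandas 2.3.3 and scipy 1.17.1 were used.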

Additional observations from a re-analysis of the deposited data

How the results depend on the processing

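The number of genes with a region of the combined list was 3 of 10 with 5 kb flanks, beside 9.03% of all genes. With 10 kb flanks it was also 3, beside 10.7%. It was 2 with 1 kb flanks (beside 7.68%) or within 1 kb of a gene end (beside 6.99%), where Map1lc3b was lost. At a score of at least 540 it was 0, beside 4.09%. Counted on the peaks of replicate 2 alone it was 3, beside 14.6%, and on those of replicate 1 alone it was 3, beside 9.71%. Each of the 3 combined regions holds a peak of both libraries, so neither count could fall below 3. For the peaks of each library, a −log10 q of at least 5 left 2 genes and dropped Gabarap. The shares of all genes at that limit were 8.8% in replicate 1 and 13.1% in replicate 2. The mean folds moved by less than their SD when either library was left out, by construction of a mean over 2 values. Without the added 1 they were 9.69 at Map1lc3b, 4.28 at Gabarap and 4.78 at Nbr1. Against the genome-wide background, an alternative chosen after seeing the data, they were 9.45, 6.06 and 10.0. Nbr1 and Map1lc3b then changed order by mean and in replicate 1, but not in replicate 2. No paired analysis was possible because the ChIP libraries form a single group and the inputs have no values of their own here. Pileups of 13 to 32 fragments and 3 to 7 input fragments limit the comparison of these regions.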
